A study of Mus musculus with 5 samples.

Results

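The cells described here are collagen-positive, Ptprc-negative cells of subcutaneous MC38 tumors, labelled fibroblasts, as captured by single-cell RNA-Seq with antibody tags. MC38 is a mouse colon carcinoma line. The cells were chosen by their own transcripts. A cell barcode was a member if it had at least 20 unique molecular identifiers (UMIs) of Col1a1, Col1a2 and Col3a1 per 10000, a UMI of at least 2 of the 4 genes Dcn, Lum, Pdgfra and Pdgfrb, no UMI of Ptprc (CD45) and under 20 UMIs of the C1q genes per 10000. Of 57094 barcodes that had at least 200 genes and under 10% mitochondrial UMIs, 8306 were members, 5009 in reaction 1 and 3297 in reaction 2. They made up 14.8% of the barcodes of reaction 1 (exact binomial 95% interval 14.5 to 15.2) and 14.1% of those of reaction 2 (13.7 to 14.6), in suspensions that the sort had set to equal parts of CD45+ and CD45- cells, so these shares are not shares of the tumor. All such intervals below cover counting error only.

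All mice were male wild-type C57BL/6J, 8 to 10 weeks old, and received 1000000 MC38 cells under the skin. They were given either isotype antibody or combined checkpoint inhibition (CPI, antibodies to PD-1 and CTLA4) at days 3, 6 and 9, then either vehicle (DPBS) or 20 mg/kg of the JAK1 inhibitor ABT-317 on day 12, and tumors were taken on day 15. The 4 groups are called Isotype, CPI, Isotype + ABT-317 and CPI + ABT-317, and each was stained with its own hashtag antibody in each of 2 pooled reactions. The deposited key ties a hashtag to a group and reaction but to no mouse, so the spread between the 2 reactions is the only replicate spread here and may be technical.

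Fibroblasts build the collagen matrix of a tissue. Type I collagen is assembled from the products of Col1a1 and Col1a2, type III collagen from that of Col3a1, and Dcn and Lum encode small proteoglycans that bind collagen fibrils. In tumors, fibroblasts are often sorted by Pi16 (a marker of adventitial, progenitor-like fibroblasts), Acta2 (smooth muscle actin, of contractile myofibroblasts), Postn (periostin, a matrix protein of activated fibroblasts) and Cxcl12 (a chemokine that binds CXCR4). Interferon-γ signals through JAK1 and JAK2, and many promoters that respond to it hold gamma-activated sites.

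The treatment of a cell was read from 1 DNA tag of 15 bases on its hashtag antibody. The tags of the Isotype and CPI groups are shown because the main difference between the groups rests on telling them apart. The closest pair among all 8 hashtags differed at 7 bases, a distance that says nothing of background hashtag counts.
CPI, reaction 1: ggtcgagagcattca
CPI, reaction 2: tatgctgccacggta
Isotype, reaction 1: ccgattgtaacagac
Isotype, reaction 2: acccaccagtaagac
The tags of the antibodies against CD90.2 (Thy1) and Sca-1 (antigen Ly-6A/E) are shown because these proteins were measured independently of the rule. Both are surface proteins by which fibroblasts can be recognised.
CD90.2: ccgatcagccgttta
Sca-1: ttcctttcctacgca

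The matrices held 435031691 gene UMIs in reaction 1 and 377184807 in reaction 2, with a median of 10042 and 12839 per member and a range of 532 to 86133. The 2 reactions shared 1416 barcode sequences, and 17 of them were members in both. At the collagen threshold, where more barcodes lay outside than inside (5100 against 5009 in reaction 1 and 3655 against 3297 in reaction 2 among those meeting every other criterion), the nearest 100 inside had 20.0 to 20.5 and 20.0 to 21.1 collagen UMIs per 10000, and the nearest 100 outside had 19.3 to 20.0 and 19.1 to 20.0. A limit of 2500 genes per barcode, which the study's methods state, would have left 1677 and 896 members.

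The members differed widely in type I collagen. Col1a1 (chromosome 11, 94936224 to 94953042, GRCm38) and Col1a2 (chromosome 6, 4504814 to 4541544) together made up a median of 322 UMIs per 10000 in the 1418 members of reaction 1, and 383 in the 937 of reaction 2, that had 40 or more of them. The other 3591 and 2360 members had a median of 1.80 and 0.54. These are called Col1a1-high and Col1a1-low members. The value of 40 was set after the distribution was seen, and all differences between the sides are therefore described with no test. Only 7.17% and 6.61% of members lay between 20 and 80 UMIs per 10000. Lower levels were common: 555 and 219 members lay between 5 and 10, and 661 and 334 between 10 and 20. Thus 28.3% (27.1 to 29.6) and 28.4% (26.9 to 30.0) of members were Col1a1-high. Among members with under 2500 genes they were the majority, at 63.7% (61.4 to 66.0) and 76.6% (73.6 to 79.3). All Col1a1-low members but the 192 and 115 with 20 or more of these UMIs could pass the collagen threshold only with Col3a1 (chromosome 1, 45311538 to 45349706). The Col1a1-low members had a median of 26.8 and 29.8 Col3a1 UMIs per 10000, against 208 and 245 in Col1a1-high members.

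**Figure D1:**
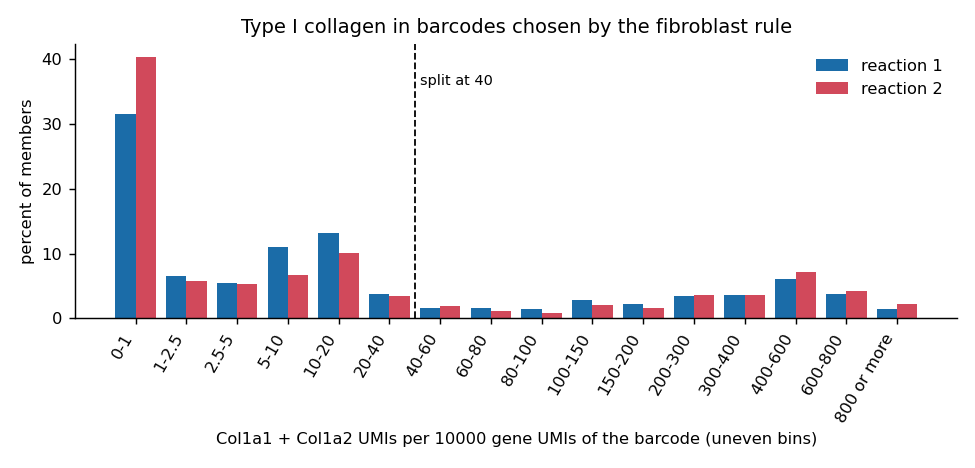
Percent of members (vertical axis) by Col1a1 and Col1a2 UMIs per 10000 UMIs (horizontal axis, bins of uneven width) in each of the 2 reactions, with a dashed line at the split of 40. The lowest bin, under 1 UMI per 10000, holds 1578 and 1328 members, the bins from 40 to 100 hold few, and the Col1a1-high members spread around medians of 322 and 383.

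All 6 fibroblast markers were genes of the rule. Col1a1 and Col1a2 also set the split, so these levels cannot check the label. On the Col1a1-high side, Col1a1 stood at 15247 and 17593 counts per 1000000 UMIs (CPM, reaction 1 and reaction 2, the order used throughout). It stood at 302 and 233 on the Col1a1-low side, below the 478 and 463 of Ptprc-positive barcodes. Lum stood at 572 and 695 against 53.4 and 63.3, and Dcn at 3918 and 4741 against 1648 and 2103. Only Pdgfra, the receptor by which fibroblasts take up platelet-derived growth factor signals, was higher on the Col1a1-low side, with 184 and 171 against 116 and 126. Col1a1-low members kept Dcn, Col3a1 and Pdgfra above the other Ptprc-negative barcodes, where Dcn stood at 462 and 495 and Col3a1 at 645 and 581, so they are called by the rule and given no cell type name. Since the rule used these genes, their levels are a description.

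Among the 20 genes that led the Col1a1-high side by fold were secreted proteins of stroma. Saa3, an acute-phase serum amyloid, stood at 279 and 346 CPM against 2.78 and 2.03. Sfrp2, a secreted Wnt antagonist, stood at 889 and 1197 against 14.4 and 10.6, and Cthrc1, a secreted protein of collagen-producing cells, at 308 and 439 against 5.23 and 4.41. Mmp3 (stromelysin), Mfap2 (a microfibril protein), Gpx3 (an extracellular peroxidase) and the growth factor Igf1 belonged to the same group, Igf1 with 171 and 217 against 3.32 and 1.87. Thy1, the gene of CD90, stood at 135 and 181 against 6.72 and 4.59.

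The Col1a1-low side was led by Aqp1 (a water channel), with 54.9 and 65.2 CPM against 7.44 and 9.29, and by Enpp2 (autotaxin, which makes lysophosphatidic acid), with 73.8 and 78.1 against 12.3 and 12.0. H19, an imprinted non-coding RNA expressed in embryonic tissue and in many tumors, reached 1048 and 1240 against 260 and 284. It stood at 149 and 142 in other Ptprc-negative barcodes and 231 and 175 in Ptprc-positive ones. Inhba, an activin subunit, stood at 327 and 319 against 113 and 94.5, and the transcription factor Trps1 at 596 and 408 against 172 and 96.0.

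Of 8304 genes with a mean of at least 10 CPM, 2195 were higher on the Col1a1-high side in both reactions and 5337 were lower, with a median log2 ratio of -0.21 in each reaction. All 10 genes of a universal fibroblast list were higher, with medians of 3.81 and 3.99. Clec3b (tetranectin), for example, stood at 2485 and 3188 against 75.1 and 59.6, and Dpt (dermatopontin) at 887 and 945 against 98.9 and 90.9. Of 16 matrix genes, 14 were higher and 2 lower. Sparc, a collagen-binding glycoprotein, stood at 11804 and 15855 against 1056 and 1315, while Vcan (versican) was one of the exceptions with 184 and 169 against 368 and 322. Of 16 inflammatory genes 12 were higher, among them C3, the central complement component, with 1006 and 1166 against 34.7 and 22.1.

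Interferon-γ inducible, cell cycle and glycolytic genes ran the other way. Of 30 interferon-γ inducible genes 28 were lower on the Col1a1-high side, with medians of -0.83 and -1.13. B2m, the light chain of MHC class I, stood at 2212 and 2186 against 3371 and 3704. All 14 cell cycle genes were lower (medians -0.67 and -0.67), as were 16 of 20 hypoxia and glycolysis genes (medians -0.80 and -0.95). These lists and the split were chosen with values of these data known, and the median over all genes was itself below 0.

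**Figure D2:**
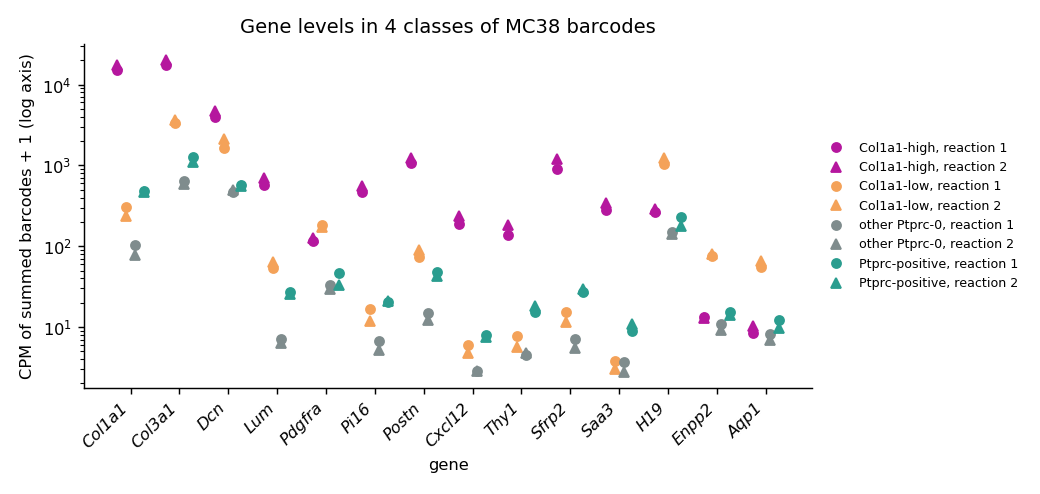
CPM plus 1 (vertical axis, log scale) of 14 genes (horizontal axis) in Col1a1-high members, Col1a1-low members, other Ptprc-negative barcodes and Ptprc-positive barcodes, 1 point per reaction. Col1a1, Pi16, Sfrp2 and Saa3 separate the Col1a1-high members from all others, whereas H19, Enpp2 and Aqp1 are highest in the Col1a1-low members.

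Markers of other cells did not separate the sides in the same way. The 7 macrophage markers summed to 385 and 242 CPM in Col1a1-high members and 422 and 277 in Col1a1-low members, against 4260 and 6565 in Ptprc-positive barcodes. The 9 epithelial markers summed to 4.93 and 5.66, and to 1.34 and 1.23, with 3 and 2 of the 9 at 0 in both reactions. The MC38 line is itself of epithelial origin, and these keratin and adhesion genes were as scarce in the other Ptprc-negative barcodes (1.18 and 1.05). The 7 pericyte markers summed to 123 and 125 on the Col1a1-high side and 68.0 and 63.3 on the Col1a1-low side, and the 7 endothelial markers to 57.9 and 57.5 and to 18.5 and 18.3. Of the endothelial markers, only Tek reached 10 CPM in both reactions on the Col1a1-high side, and none did on the Col1a1-low side. Neutrophil, T and NK, Schwann, adipocyte, keratinocyte and muscle markers summed to at most 11.3 on either side. The sides also differed in depth, with medians of 4645 and 5410 UMIs per Col1a1-high member and 11938 and 15741 per Col1a1-low member. The part of any of these in the differences was not tested.

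Most Col1a1-high members with a single hashtag carried that of CPI. The study's comparison of CPI with isotype asks what checkpoint blockade does to the tumor, and here it was read in barcodes with exactly 1 hashtag present, which were 51.0% and 66.1% of members. Of 756 such Col1a1-high members in reaction 1, 706 carried the CPI hashtag, or 93.4% (91.4 to 95.1). In reaction 2 they were 595 of 624, or 95.4% (93.4 to 96.9). With any number of hashtags allowed, 89.4% and 88.2% of all Col1a1-high members carried the CPI hashtag, against 22.7% and 11.8% of Col1a1-low members. Median counts per Col1a1-high member were 118 and 75 UMIs of the CPI hashtag and 62 and 44 of the CPI + ABT-317 hashtag. Those of the Isotype hashtag were 47 and 15, and those of Isotype + ABT-317 were 41 and 7. A hashtag led by at least 1 natural log unit in only 494 of 1418 and 296 of 937 Col1a1-high members. Under an assignment by this leading hashtag their CPI share was lower, at 59.7% of 494 and 65.2% of 296. That of CPI + ABT-317 was 16.4% and 26.4%, against 0.794% and 2.88% with 1 hashtag. Among Col1a1-low members with exactly 1 hashtag the CPI share was 1.11% and 1.48%, and the Isotype share 64.0% and 60.4%. Also with exactly 1 hashtag, CPI took 7.64% and 6.35% of the other Ptprc-negative barcodes and 11.3% and 9.48% of Ptprc-positive ones.

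Taken per treatment, Col1a1-high members were 35.7% (33.6 to 37.8) of the 1978 CPI barcodes of reaction 1 and 39.3% (36.9 to 41.8) of the 1513 of reaction 2. They were 0.332% and 0.0955% of Isotype barcodes (34 of 10237 and 8 of 8380), 0.370% and 0.148% under Isotype + ABT-317, and 0.314% and 0.761% under CPI + ABT-317 (6 of 1908 and 18 of 2364). The intervals of CPI did not overlap those of the other groups in either reaction. They count barcodes, which are not replicates of a treatment, so this is no test. Col1a1-low members were 11.2% and 11.2% of Isotype barcodes, 14.9% and 16.3% with ABT-317 alone and 11.7% and 11.1% with CPI + ABT-317, but 1.01% and 1.52% of CPI barcodes.

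No p-value is given for these shares, because members were chosen by transcripts that treatment may change and 2 pooled reactions are the only replicates. With a barcode given to its leading hashtag instead, Col1a1-high members were 28.1% and 30.9% of CPI barcodes, 0.650% and 0.351% of Isotype, 1.26% and 0.273% under Isotype + ABT-317 and 2.10% and 1.59% under CPI + ABT-317. Depth moved with treatment: the median UMI count of other Ptprc-negative barcodes was 1237 and 1336 in CPI but 6883 and 14868 in Isotype, while Col1a1-high members of CPI had 3952 and 4909. The rule needs UMIs of at least 2 of Dcn, Lum, Pdgfra and Pdgfrb. A barcode with few UMIs can therefore fail it at equal expression. The part of depth in the low Col1a1-low share of CPI was not tested, so that share does not show a loss of cells. For the Col1a1-high share, fewer tumor cells and more fibroblasts in a CPI suspension give the same value and cannot be told apart here.

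**Figure D3:**
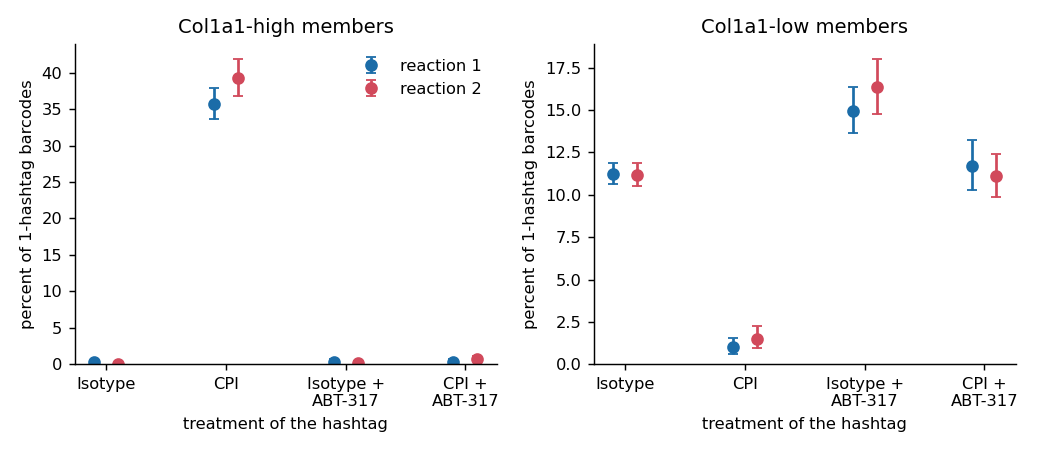
Col1a1-high and Col1a1-low members as a percent of the barcodes with exactly 1 hashtag (vertical axes), by treatment (horizontal axes) and reaction, with exact 95% intervals. Col1a1-high members reach 35.7% and 39.3% in CPI and stay under 1% in the other groups, while Col1a1-low members are lowest in CPI, at 1.01% and 1.52%. The part of UMI depth, which was low in CPI, in the Col1a1-low shares was not tested.

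The genes of the rule followed this makeup when members were summed per treatment and reaction. Col1a1 stood at 25189 and 25957 CPM in CPI, 329 and 144 in Isotype, 275 and 143 in Isotype + ABT-317 and 459 and 1047 in CPI + ABT-317. Pi16 (chromosome 17, 29317680 to 29330593) stood at 817 and 821 in CPI and between 1.53 and 41.7 in the other sums. Cxcl12 (chromosome 6, 117168535 to 117181367) stood at 337 and 345 in CPI and between 0.977 and 23.9 elsewhere. The highest of these other values belonged in each case to CPI + ABT-317 in reaction 2, whose sum held 18 Col1a1-high members among 280.

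Fibroblast states within the members were read after each cell was thinned to 1500 UMIs, which 4935 of 5009 and 3239 of 3297 members reached. Of all members, 12.5% and 13.0% had a UMI of Pi16, 1.46% and 2.01% of Acta2, 24.2% and 26.7% of Postn, and 7.29% and 8.61% of Cxcl12. Unthinned, these shares were 23.4% and 22.5%, 4.25% and 5.55%, 45.6% and 47.5%, and 17.4% and 18.3%. On the Col1a1-high side Pi16 was seen in 39.0% (36.4 to 41.7) and 43.3% of cells, Acta2 in 3.08% and 4.74%, Postn in 65.8% and 70.9%, and Cxcl12 in 24.9% and 30.0%.

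On the Col1a1-low side the shares were 2.35% and 1.57% for Pi16, 0.840% and 0.977% for Acta2, and 0.560% and 0.552% for Cxcl12. Ptprc-positive barcodes, which should lack these genes, had 2.13% and 1.81%, 0.640% and 0.875%, and 0.864% and 0.724% at the same depth of 1500 UMIs (unthinned, 6.31% and 4.94%, 2.29% and 2.74%, and 3.48% and 2.67%). Detection of Pi16, Acta2 and Cxcl12 in Col1a1-low members was thus no more frequent than in Ptprc-positive barcodes, or within counting error. Postn was detected more often, with 8.34% and 10.1% against 4.68% and 3.37%. An equal share does not show that the UMIs were background. The 72 and 65 Acta2-positive cells of all members had the pericyte marker Rgs5 at 991 and 810 CPM. The 42 and 42 of them on the Col1a1-high side had 444 and 397. Genes leading the Acta2-positive cells of all members by ratio included the pericyte markers Rgs5 and Mcam and the contractile genes Tagln and Myl9. The identity of these cells was not tested.

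**Figure D4:**
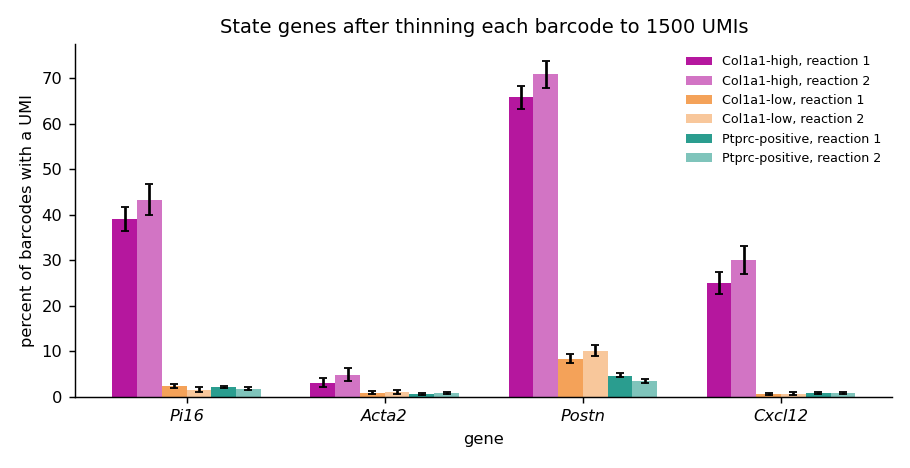
Percent of cells with a UMI of Pi16, Acta2, Postn or Cxcl12 after thinning to 1500 UMIs per cell (vertical axis) for each gene (horizontal axis), by reaction, in Col1a1-high members, Col1a1-low members and Ptprc-positive barcodes, with exact 95% intervals. Only Postn stands clearly above the share of Ptprc-positive barcodes in Col1a1-low members, and all 4 genes stand above it in Col1a1-high members.

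Within the Col1a1-high members, Pi16 and Acta2 were seldom seen in the same cell. Acta2 was detected in 0.564% of Pi16-positive cells (3 of 532) and 0.781% (3 of 384), against 4.69% and 7.77% of Pi16-negative cells. Cxcl12 was detected in 15.6% and 20.3% of Pi16-positive cells against 30.9% and 37.5% of the others. Postn overlapped with every state, from 59.2% and 66.7% of Pi16-positive cells to 81.0% and 85.7% of Acta2-positive ones. None of the 4 genes was seen in 14.2% and 10.0% of cells, and 2 or more in 41.9% and 49.5%. These cells share libraries and depth, and no test was made over cells.

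Each state carried other genes along. Pi16-positive cells had 91.5 and 111 CPM of Efhd1 against 11.2 and 7.97 in Pi16-negative cells, and 112 and 156 of Dmkn (dermokine) against 16.0 and 19.9. Aldh1a3, a retinoic acid-producing enzyme, stood at 55.1 and 79.9 against 6.42 and 6.64. The 42 and 42 Acta2-positive cells carried contractile genes, with Tagln (transgelin) at 1667 and 1222 against 8.07 and 1.58 and Myl9 (a myosin light chain) at 381 and 365 against 6.06 and 11.1. They also had Des (desmin) at 143 and 143 against 2.52 and 2.37 and Rgs5 at 444 and 397 against 16.1 and 15.8, both of which are also expressed by pericytes.

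Postn-positive cells had more Col12a1 (collagen XII, 211 and 208 against 51.5 and 28.4), Lrrc15 (a marker of tumor myofibroblasts, 87.0 and 76.4 against 10.0 and 20.7) and Mmp13 (a collagenase, 81.8 and 65.8 against 4.29 and 10.3). Cxcl12-positive cells had more Cxcl14 (116 and 75.2 against 28.7 and 19.4), Mgp (matrix Gla protein, 416 and 486 against 165 and 127) and Sfrp1 (137 and 165 against 45.6 and 59.1). Outside CPI there were too few Col1a1-high cells to compare states between treatments: in CPI Pi16 was seen in 44.7% of 667 and 49.6% of 562 cells, in Isotype in 8 of 33 and 4 of 8, in Isotype + ABT-317 in 2 of 10 and 1 of 3, and in CPI + ABT-317 in 2 of 6 and 8 of 17.

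Gene changes between treatments were tested on the 8 sums of members with 1 hashtag (edgeR quasi-likelihood test with the reaction as a block, Benjamini-Hochberg adjusted p of 0.05 over 12589 genes). For CPI versus isotype, 3673 genes were higher in CPI (29.2%) and 3683 lower (29.3%). With ABT-317 after CPI against CPI alone, 3505 were higher (27.8%) and 3477 lower (27.6%). The interaction of CPI and ABT-317 called 2670 genes in the positive (21.2%) and 2224 in the negative direction (17.7%). The CPI sums held 706 of 726 and 595 of 618 Col1a1-high members and the other sums 3 to 34, so these 3 comparisons set Col1a1-high cells against Col1a1-low cells, and treatment and makeup cannot be told apart in them. With Col1a1-low members only, 450, 371 and 64 of 11858 genes were past the threshold, on CPI sums of 20 and 23 cells with 118245 and 166817 UMIs. Those CPI sums differed from the other Col1a1-low sums in markers of other cells too: the 7 pericyte markers summed to 1531 and 743 CPM against 44.4 to 68.8, the 6 T and NK markers to 42.3 and 54.0 against 0.171 to 3.26, and the 7 macrophage markers to 457 and 869 against 45.9 to 335. Their part in these calls was not tested.

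The largest rises and falls between CPI and Isotype included the following. Ace, the angiotensin-converting enzyme, stood at 650 and 615 CPM in CPI against 5.28 and 1.37 in Isotype (log2 change 7.79 ± 0.39 SE, adjusted p = 3.0e-07). Hpgd (which degrades prostaglandins, 44.5 and 47.1 against 0.143 and 0.0651, or 3 UMIs in all), Wnt2 (a Wnt ligand, 45.5 and 48.6 against 0.143 and 0.130), Cxcl13 (a B cell chemokine, 44.2 and 49.9 against 0.143 and 0.195), Col6a6, C1qtnf2, Gdf10 and Il1rl2 made up the rest of the 8 largest rises. The largest falls were in Lef1, a Wnt pathway transcription factor, at 0.665 and 0.308 in CPI against 26.7 and 24.5 in Isotype, and in Cdh18, Itgb8, Csta2, Gchfr and Cnih2. Csta2 stood at 1.99 and 3.69 against 50.5 and 58.0.

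By list, all 10 universal fibroblast genes rose in CPI (median log2 change 4.93, all genes -0.03, of which 29.2% rose and 29.3% fell), as did 15 of 16 matrix genes with 1 falling, 10 of 12 proteases and inhibitors with 2 falling, and 13 of 19 inflammatory genes with 4 falling. C3 rose by 7.15 ± 0.42 and Sparc by 4.32 ± 0.08, and Mmp2, the gelatinase, by 3.20 ± 0.09. Of 33 interferon-γ inducible genes 22 fell and 4 rose (median -0.71), of 26 type I interferon-stimulated genes 17 fell and 3 rose (median -1.31), and of 14 cell cycle genes 13 fell. B2m fell by 0.52 ± 0.05 and Top2a, the mitotic topoisomerase, by 1.94 ± 0.10 on the log2 scale. With Col1a1-low members only, 1 of 34 interferon-γ inducible genes rose and 3 fell, with a median of 0.16 that turned sign (all genes -0.14), none of the 26 type I genes passed (edgeR, median -0.11), and 5 of 10 universal fibroblast genes and 2 of 16 matrix genes rose, with 0 and 2 falling. Over all 11858 genes of that fit, 450 passed in either direction. In that fit, where the CPI sums were the ones rich in pericyte markers, Mmp2 and Fn1 (fibronectin) had log2 changes of -0.38 and -0.93. In the sums of all members, the pericyte markers stood at 253 and 217 CPM in CPI and 61.2 and 57.5 in Isotype, and the 7 endothelial markers at 102 and 87.7 against 15.8 and 14.3; their part was not tested.

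With ABT-317 after CPI, the lists stood the other way: 10 of 10 universal fibroblast genes and 15 of 16 matrix genes fell against CPI alone, while 29 of 33 interferon-γ inducible genes and 14 of 14 cell cycle genes rose. Over all genes tested, 27.6% fell and 27.8% rose. In the fit of Col1a1-low members, 5 of 10 universal fibroblast genes fell and 1 rose, 1 of 16 matrix genes fell and 2 rose, and 7 of 34 interferon-γ inducible and 2 of 14 cell cycle genes rose with none falling (edgeR). Over all 11858 genes of that fit, 180 rose and 191 fell. In all members Opcml, a neural adhesion molecule, stood at 376 and 306 in CPI and 0.648 and 2.03 in CPI + ABT-317. Has1, a hyaluronan synthase, stood at 120 and 107 against 0.324 and 1.35. Islr2, Aldh1a1, Pamr1, Col6a5, Col6a6 and Il1rl2 made up the rest of the 8 largest falls, and Lef1, Aqp1, Itgb8, Csta2, Wnt6 and ENSMUSG00000079190 were among the 8 largest rises. Both comparisons share the CPI sums, so their opposite signs are a single observation. The genes leading the interaction were mostly these, with Trp53i11, Syt13 and Csmd3 among the positive ones and Hmcn1, Wnt2 and Pcsk6 among the negative.

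In the groups without a Col1a1-high excess, ABT-317 alone changed few genes. Against Isotype, 10 genes were higher (0.0794%) and none was lower (0.0%, with 331 lower at an unadjusted p under 0.05 and 4 lower by DESeq2). With Col1a1-low members only, 8 of 11858 genes were higher (0.0675%) and 0 lower (0.0%, with 369 lower at an unadjusted p under 0.05 and 1 by DESeq2), and 7 genes were called in both fits. Without the reaction as a block no gene passed in either fit, with 301 and 279 at an unadjusted p under 0.05, and without single sums the count ranged from 1 to 117 in all members and from 0 to 392 in Col1a1-low members. The calls were not all in the higher direction in these fits. Without the reaction 1 or the reaction 2 sum of CPI + ABT-317, 69 and 67 genes were higher and 48 and 47 lower in all members, and 195 and 191 were higher and 197 and 196 lower in Col1a1-low members. Without the Isotype sum of reaction 2, 39 were higher and 119 lower in Col1a1-low members, and with no filter on low counts 122 were higher and 194 lower in all members.

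In all members, 2 of 16 matrix genes (Postn and Tnc) and 1 of 19 inflammatory genes (Ccl7) rose with ABT-317 alone. Postn (chromosome 3, 54361109 to 54391037) stood at 52.9 and 69.0 CPM in Col1a1-low members of Isotype and 92.6 and 142 with ABT-317, a log2 change of 0.96 ± 0.15 (adjusted p = 0.036). Both treated sums lay above both Isotype sums, which is no separate support, since the gene was chosen by a test on these sums. Ccl7, a chemokine for monocytes, stood at 190 and 245 against 369 and 396 with ABT-317 (0.85 ± 0.10, adjusted p = 0.0050). Cebpd, an inflammatory transcription factor, stood at 124 and 198 against 227 and 318 (0.80 ± 0.11, adjusted p = 0.0087).

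Isg15, a ubiquitin-like protein induced by interferon, stood at 480 and 614 in Isotype and 767 and 927 with ABT-317 (0.66 ± 0.11, adjusted p = 0.036). Under the limit of 2500 genes its change in all members was -0.27, and no gene passed there or with at least 50 collagen UMIs per 10000 (edgeR, 250 and 558 at an unadjusted p under 0.05). Ccn1, a matricellular protein, rose by 0.58 ± 0.09 (adjusted p = 0.036), Nrg1 (neuregulin) by 0.97 ± 0.15, and Igfbp5, an IGF-binding protein, by 1.96 ± 0.26, from 5.00 and 5.16 to 17.4 and 21.4. In all members, Tnc (tenascin-C, 4.06 and 3.97 against 43.7 and 16.9), Aspn (asporin) and Tnfaip6 also passed. Of the 33 or 34 interferon-γ inducible genes tested none passed in either fit (edgeR), with list medians of 0.18 and 0.15. Isg15 was the only one of 26 type I interferon-stimulated genes to pass. The 7 macrophage markers summed to 335 and 116 in these Isotype sums and 120 and 45.9 with ABT-317; their part in the changes was not tested.

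CPI against isotype, both followed by ABT-317, compares groups with few Col1a1-high members, which were 2.42% and 0.898% of members in Isotype + ABT-317 and 2.62% and 6.43% in CPI + ABT-317. By leading hashtag these shares were 7.57% and 1.47%, and 17.1% and 13.4%. In all members 95 genes were higher after CPI (0.755%) and 58 lower (0.461%). In Col1a1-low members 110 were higher (0.928%) and 34 lower (0.287%), of which 92 of the 144 were also called in all members. Of the interferon-γ inducible list, 10 of 34 tested genes were higher in Col1a1-low members of CPI + ABT-317 and none lower, with a median of 0.48 against 0.01 over all genes. In all members 5 of 33 passed. Of the type I interferon list 2 of 26 were higher and 1 lower, and of 22 JAK-STAT components none passed (edgeR, Col1a1-low members).

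Among the 10 genes were the guanylate-binding proteins Gbp2, Gbp4 and Gbp6, the immunity-related GTPases Igtp, Iigp1, Irgm1 and Irgm2, the T cell chemokine Cxcl9 and Cd274, which encodes PD-L1. Igtp stood at 47.8 and 62.8 CPM in Isotype + ABT-317 and 125 and 121 in CPI + ABT-317 (log2 change 1.10 ± 0.15, adjusted p = 0.0029). Gbp2 stood at 220 and 247 against 483 and 392 (0.86 ± 0.14, adjusted p = 0.0055), and Irgm1 at 34.5 and 43.0 against 67.8 and 80.1 (0.88 ± 0.12, adjusted p = 0.0031). For each of these genes both CPI + ABT-317 sums lay above both Isotype + ABT-317 sums. The genes were chosen by a test on the same sums, so this order is no separate support.

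Cd274 stood at 15.4 and 14.4 against 32.7 and 27.2 (0.95 ± 0.17, adjusted p = 0.013), and Cxcl9 at 17.2 and 33.0 against 97.2 and 73.2 (1.69 ± 0.30, adjusted p = 0.014). The class I and proteasome genes of the same list did not pass, with log2 changes of 0.04 ± 0.10 for B2m, 0.15 ± 0.10 for H2-K1 and 0.07 ± 0.10 for Psmb8. Isotype without ABT-317 had Igtp at 44.2 and 53.4 and Cd274 at 20.7 and 14.9, near the Isotype + ABT-317 values.

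The interferon-γ calls rested on the 2 Isotype + ABT-317 sums and on the block. Without the reaction 1 or the reaction 2 sum of that group, 1 and 2 genes of all tested passed in Col1a1-low members, and Igtp kept log2 changes of 1.01 and 1.20 that no longer passed. Without the block none of the 11858 genes passed, with 589 at an unadjusted p under 0.05, and DESeq2 with the block called 150. The 7 macrophage markers, of cells that express these genes too, summed to 120 and 45.9 in Isotype + ABT-317 and 95.9 and 287 in CPI + ABT-317, ranges that overlap. Their part was not tested.

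**Figure D5:**
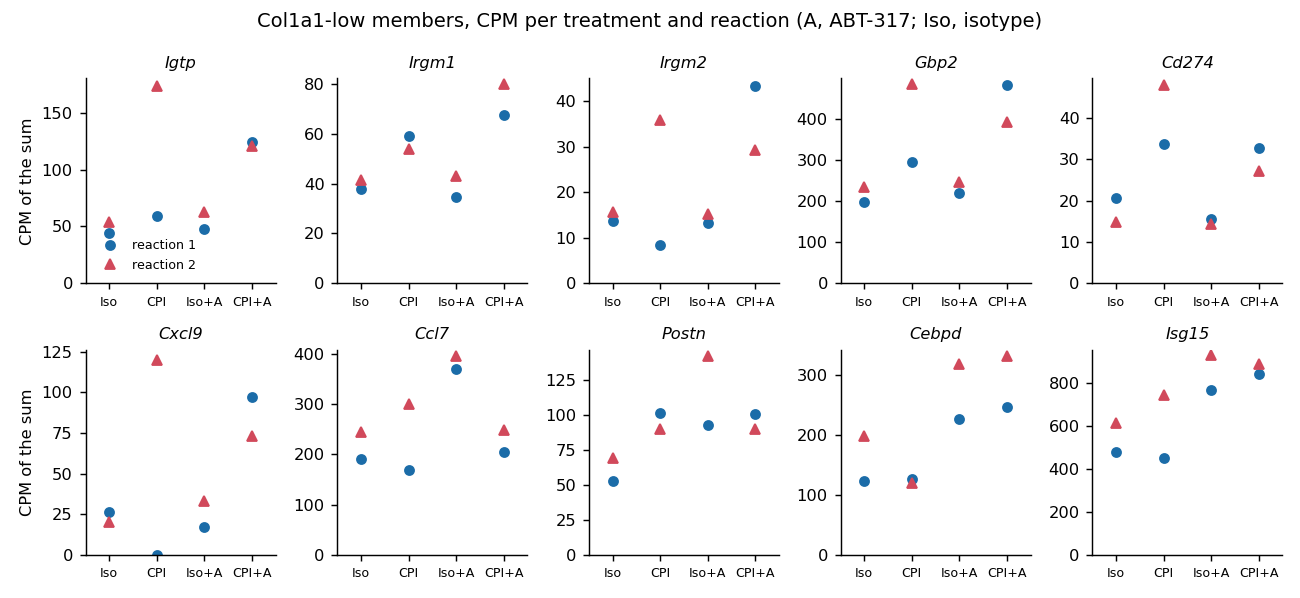
CPM (vertical axes) of 10 genes in Col1a1-low members, by treatment (horizontal axes; Iso, isotype; A, ABT-317), 1 point per reaction. Igtp, Irgm1, Irgm2, Gbp2, Cd274 and Cxcl9 lie higher in CPI + ABT-317 than in Isotype + ABT-317 in both reactions, and Ccl7, Cebpd and Isg15 lie higher in Isotype + ABT-317 than in Isotype; the CPI points rest on 20 and 23 cells.

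The promoters of Igtp and Irgm2 are shown because both genes were among the 10 and both hold a gamma-activated site next to an interferon-stimulated response element. The 150 bases before each transcript start are from RefSeq (GRCm38.p6, plus strand, chr11:58199406-58199555 for Igtp and chr11:58214827-58214976 for Irgm2), and capitals mark TTCNNNGAA and the element GAAA, any 2 bases, GAAA.
Igtp: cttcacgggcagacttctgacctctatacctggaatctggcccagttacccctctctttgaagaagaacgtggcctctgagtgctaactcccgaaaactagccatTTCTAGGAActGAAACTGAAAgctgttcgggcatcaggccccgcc
Irgm2: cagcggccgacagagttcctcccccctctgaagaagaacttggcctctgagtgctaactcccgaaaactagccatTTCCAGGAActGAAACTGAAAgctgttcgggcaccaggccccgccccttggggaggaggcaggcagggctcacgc
The TTCNNNGAA match began 45 bases before the start of Igtp and 75 before that of Irgm2, and the match of the response element 34 and 64 bases before, with no overlap between the matches. The stretches share a run of 38 identical bases. The 2 genes are neighbours on the same strand, and the GENCODE models of Igtp (chromosome 11, 58199556 to 58207591) and Irgm2 (58199618 to 58222782) overlap, so reads of the shared part could be assigned to either and their values are uncertain in that measure.

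On both strands of 300 bases around the start, TTCNNNGAA was found in 8.30% of 32851 RefSeq promoters (2726) and the response element in 3.44% (1131). For the interferon-γ list, 32 promoters of 28 genes were found, of which 10 held the former and 14 the latter. Of the 6 promoters among the 10 genes that rose, 2 held the former and 4 the latter. The list was put together from genes known to respond to interferon, and a match is a description of letters and not of a bound site.

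Other genes that differed between CPI + ABT-317 and Isotype + ABT-317 fell outside the interferon list. Fabp4, a fatty acid-binding protein, stood at 93.8 and 88.0 against 310 and 359 after CPI in all members (1.81 ± 0.17, adjusted p = 0.0095) and rose by 1.86 ± 0.19 in Col1a1-low members. Under the limit of 2500 genes its change in all members was -1.45. In all members the count of 153 genes became 0 without the block (879 at an unadjusted p under 0.05), and 4 and 0 (941 at an unadjusted p under 0.05, edgeR) without the reaction 1 or the reaction 2 sum of Isotype + ABT-317. Ereg, an EGF receptor ligand, stood at 16.2 and 10.6 against 45.3 and 43.0 in Col1a1-low members, and the C1 inhibitor Serping1 at 4.63 and 2.74 against 8.60 and 26.7. Genes that fell included the histone genes H2bc4 (-1.25 ± 0.17 in all members, 29.7 and 25.7 against 12.3 and 11.9) and H1f2, and the sterol synthesis genes Hmgcs1 (-0.92 ± 0.14) and Fdft1.

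Ccl7 fell by 0.88 ± 0.09 (adjusted p = 0.0095), from 397 and 398 in Isotype + ABT-317 to 204 and 248 in CPI + ABT-317, values near the 197 and 245 of Isotype. The acute-phase gene Saa3 stood at 2.09 and 0 in Isotype + ABT-317 and 6.48 and 32.9 in CPI + ABT-317, and Mdk (midkine), Ecrg4, Ptn and C1qtnf2 were low in the same way. Dact1 had 0 UMIs in the Isotype + ABT-317 sums and 15 in the CPI + ABT-317 sums, at least 7.40-fold higher when compared with a floor of 3 UMIs over the group. Col1a1-high members were 6 of 229 (2.62%) and 18 of 280 (6.43%) members in the CPI + ABT-317 sums. In the Isotype + ABT-317 sums they were 10 of 414 (2.42%) and 3 of 334 (0.898%). Among Col1a1-low members alone, Saa3 had a log2 change of 0.09, which did not pass, against 4.27 in all members, and Ptn had -0.43 against 2.14. The part of makeup in the other genes was not tested.

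Surface proteins were measured by antibody tags that the rule did not use. Over the 8 pairs of members and other Ptprc-negative barcodes of the same treatment and reaction, 5 of 122 antibodies were higher on members (4.1%) and 17 lower (13.9%) (two-sided exact permutation by flipping the signs of pairs, p = 0.0078, the smallest that 8 pairs allow, adjusted p = 0.043). Sca-1 was higher in 8 of 8 pairs by 1.26 ± 0.28 (SD) on the log2 scale. Ly-6C was higher by 0.53 ± 0.40 and CD90.2 by 0.42 ± 0.35, and CD301b and Ly49H by 0.29 ± 0.26 and 0.05 ± 0.03. An isotype control antibody of the panel (HTK888) also passed, lower on members in 8 of 8 pairs by -0.05 ± 0.05, which is the size of the Ly49H difference. Lower were leukocyte proteins such as I-A/I-E (MHC class II, -1.16 ± 0.76), CD11b (-1.11 ± 0.50), CD44 (-0.75 ± 0.15) and CD48 (-0.68 ± 0.53), and the growth-related transferrin receptor CD71 (-0.75 ± 0.43) and amino acid transporter subunit CD98 (-0.51 ± 0.27). The rule kept barcodes rich in C1q out of the members but not out of the barcodes they were compared with, where the 7 macrophage markers summed to 731 and 759 CPM, so the lower leukocyte proteins are not independent of the rule.

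The adhesion molecules CD54 and CD106 and PD-L1 (CD274) did not pass, with differences of 0.16 ± 0.40, -0.00 ± 0.06 and -0.01 ± 0.14. With Col1a1-low members only, no antibody passed (45 at an unadjusted p under 0.05). Over 122 antibodies, the lowest p of 8 pairs passes by itself where at least 20 antibodies share it, which 16 did there and 22 in all members, so the lost calls do not show that the differences were lost. Sca-1 was higher on Col1a1-low members in 8 of 8 pairs by 1.03 ± 0.39, I-A/I-E lower in 8 of 8 by -1.07 ± 0.72, and CD90.2 higher in 6 of 8 by 0.18 ± 0.30. CD90.2 stood at 7791 and 8696 per 1000000 antibody UMIs on Col1a1-high members, 1761 and 1674 on Col1a1-low members, 1677 and 1600 on other Ptprc-negative barcodes and 2175 and 2161 on Ptprc-positive ones. Sca-1 stood at 27386 and 33701, 20126 and 24841, 12612 and 12995, and 14677 and 15329. Pooled over treatments, the CD90.2 level was higher in Col1a1-high members than in the other classes, while that of Sca-1 was raised on both sides. Most Col1a1-high members with 1 hashtag were of CPI and few Col1a1-low members were, so side and treatment cannot be told apart in pooled levels. Within treatments, the CD90.2 difference of members over other Ptprc-negative barcodes was 0.087 and 0.27 in CPI, whose members were nearly all Col1a1-high, and 0.69 and 1.02 in CPI + ABT-317. With Col1a1-low members only it was 0.51 and 0.74 in CPI and 0.03 and 0.02 in CPI + ABT-317. In the same pooled levels, CD55 (3807 and 4393 against 1610 and 1578) and Ly-6C were higher on the Col1a1-high side. CD71 (3635 and 3523 against 5815 and 5813) and CD98 were lower there, with the same limit.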

How the data were processed

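Gene and antibody UMI counts were the authors' filtered matrices, deposited as raw counts per barcode. The study's methods name Cell Ranger versions 5 and 7 and GRCm38, the submitters' processing notes name Cell Ranger 3.1.0 and GRCm38, and the matrix headers name Cell Ranger 8.0.1, so the version behind these counts is uncertain. The antibody reference and the hashtag key were also deposited. Live CD45+ and CD45- tumor cells had been sorted, mixed 1:1 and loaded as 2 pooled reactions (10x 5′ chemistry).

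Members and lists were chosen with earlier results of these data known. No upper limit on genes was set, although the study's methods give 2500, because it removes most members. A hashtag was called present where the upper component of a mixture of 2 normal distributions had a posterior of at least 0.5, and treatments were compared in barcodes with 1 hashtag present. No doublet caller was run, so doublets within a treatment remain. The sides, marker sums, state shares and pooled antibody levels used members with any number of hashtags. Doublets across treatments can therefore remain in those as well.

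Counts were summed per treatment and reaction (8 sums, over 10 cells each) and tested in edgeR 4.0.16 (R 4.3.3; TMM, filterByExpr, glmQLFit, glmQLFTest, reaction as a block), with DESeq2 1.42.0 as an alternative. The SE given with a gene's log2 change is the size of that change divided by the square root of the test's F statistic. It is not a spread measured over replicates. Antibodies were compared as log2 of CPM plus 1 by exact sign-flip tests written with numpy 2.4.6. Exact binomial intervals came from scipy 1.17.1. Fold changes of the sides are ratios of CPM plus 1. Named genes were the 8 largest changes in each direction among those with an adjusted p of 0.05 or less, a mean of at least 10 CPM and the same direction in both reactions, without genes of the rule; list examples and promoters were chosen after values were seen. Scripts were tested on simulated data. The reactions pair the sums, since the protocol pooled all hashtags in each reaction for batch correction; reaction differences correlated at 0.198 to 0.752 between treatments over 8321 genes. Alternatives included another normalization, no filter on low counts, 2500 genes as a limit, at least 50 collagen UMIs per 10000, thinning to 1500 UMIs, the leading hashtag and leaving out each sum. The lymph node reactions were not used, and a few genes that met the naming rule are not reported here.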

Additional observations from a re-analysis of the deposited data

Results flagged for a closer look

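The interaction of CPI and ABT-317 was past the threshold for 4894 of 12589 genes in all members (edgeR quasi-likelihood test, adjusted p of 0.05). That is, the difference between CPI and isotype was not the same with and without ABT-317. The CPI sums consisted of 706 of 726 and 595 of 618 Col1a1-high members, and the other sums held 3 to 34 of them. In Col1a1-low members the interaction was past the threshold for 64 of 11858 genes, of which 62 were also among the 4894, and the CPI sums held 20 and 23 cells there, with pericyte markers at 1531 and 743 CPM against 44.4 to 68.8 in the other sums and macrophage markers at 457 and 869 against 45.9 to 335. Their part was not tested. None of 34 interferon-γ inducible genes was among the 64 (edgeR, Col1a1-low members).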

How the results depend on the processing

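The counts of genes past the threshold moved under several settings. The count for CPI versus isotype was 450 in Col1a1-low members (members chosen after seeing the data), 3853 with cells thinned to 1500 UMIs and 2547 with under 2500 genes. For CPI + ABT-317 versus CPI these were 371, 2989 and 1125, and 4338 with at least 50 collagen UMIs. For the interaction they were 64, 1712 and 523, and 2253 with at least 50 collagen UMIs. For ABT-317 versus vehicle under isotype the count of 10 became 78 with DESeq2, 0 with at least 50 collagen UMIs, 6 with thinning, 0 with under 2500 genes, 2 with the leading hashtag and 316 with no filter on low counts. For CPI versus isotype with ABT-317 the count of 153 became 332, 16, 27, 18, 432 and 896 under the same settings. In Col1a1-low members ABT-317 under isotype gave 32 with DESeq2.

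With no replicate block, the counts were 0 for ABT-317 versus vehicle under isotype, 0 for CPI versus isotype with ABT-317, 2816 for the interaction, 5680 for CPI versus isotype and 5439 for CPI + ABT-317 versus CPI. In Col1a1-low members the fit with no replicate block gave 0 for ABT-317 under isotype and 0 for CPI versus isotype with ABT-317.

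Leaving out 1 sum at a time gave 5645 to 7896 genes for CPI versus isotype, 1 to 117 for ABT-317 under isotype, 5323 to 6817 for CPI + ABT-317 versus CPI, 0 to 310 for CPI versus isotype with ABT-317 and 3264 to 4796 for the interaction. In Col1a1-low members the ranges were 0 to 392 for ABT-317 under isotype and 1 to 621 for CPI versus isotype with ABT-317. The low ends of the ABT-317 comparisons came from leaving out an Isotype + ABT-317 sum (3 and 3, 4 and 0, 0 and 0, 1 and 2) or, for all members, the Isotype sum of reaction 1 (1), and the high ends from leaving out a CPI + ABT-317 sum. For antibodies every set of 7 pairs gave 0 to 0. The smallest p of 7 pairs, 0.0156, passes by itself over 122 antibodies only where at least 39 share it, and 22 to 28 did. These zeros therefore do not show that the differences were lost. The 22 antibodies became 42 with under 2500 genes, 0 without the CPI pairs (smallest p 0.0312) and 0 with Col1a1-low members only. The alternative that used barcodes with keratin transcripts as the comparison was not run, since pairs held under 10 barcodes.

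The share of members became 11.0% and 9.25% with under 2500 genes, 6.43% and 6.38% with at least 50 collagen UMIs, 20.9% and 20.4% of Ptprc-negative barcodes and 15.2% in reaction 2 with 1 hashtag. Shares with Pi16, Acta2, Postn and Cxcl12 were 23.4% and 22.5%, 4.25% and 5.55%, 45.6% and 47.5%, and 17.4% and 18.3% with no thinning. At 3000 UMIs they were 14.8% and 15.4%, 2.07% and 2.76%, 30.2% and 33.2%, and 10.1% and 11.5%. With under 2500 genes they were 29.7% and 40.6%, 2.12% and 2.63%, 48.5% and 58.1%, and 18.7% and 25.2%. With 1 hashtag, Postn and Cxcl12 in reaction 1 were 26.1% and 9.14%. In Col1a1-high members they were 39.0% and 43.3%, 3.08% and 4.74%, 65.8% and 70.9%, and 24.9% and 30.0%.

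Among genes named here or used as examples of the lists, the sign of a log2 change turned for Ccl2 in CPI versus isotype (-0.29 in the reported fit, 0.26 with under 2500 genes, 0.042 with the leading hashtag), H2-K1 (-0.40, then 0.14 with under 2500 genes) and Fn1 (0.27, then -0.033 with the leading hashtag, -0.15 with at least 50 collagen UMIs, -0.93 in Col1a1-low members). It turned in Col1a1-low members for Hmgb2 (0.038 from -1.17), Mmp2 (-0.38 from 3.20), Timp2 (-0.23 from 1.59) and, for CPI versus isotype with ABT-317, Ptn (-0.43). With under 2500 genes it turned for Isg15 under ABT-317 (-0.27) and for Fabp4 (-1.45) and Fdft1 (0.17) in CPI versus isotype with ABT-317. The cause was not tested.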

Other observations

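The CD4 antibody was 5068 per 1000000 antibody UMIs on Col1a1-high members of reaction 2 against 889 in reaction 1. A single barcode held 25010 of the 30093 CD4 antibody UMIs of that group, and the next highest barcode held 31. In reaction 1 the highest barcode held 99 of 7962.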
